A study of Mus musculus with 8 samples.

Results

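The genes described here are those whose RNA differed between house dust mite (HDM) and phosphate-buffered saline (PBS) in sorted mouse airway epithelial cells over both STAT3 genotypes. They were found by setting the 4 HDM libraries against the 4 PBS libraries with genotype as a covariate, over the 7512 genes, of 25124 gene symbols, whose mean was 10 normalized counts or more. Of these, 24 genes passed, 22 higher and 2 lower after HDM, and 295 genes had HDM and PBS values that did not overlap. Weight is given to genes in which the lowest HDM library lay above the highest PBS library, or the reverse. In genes that did not pass, such a separation may be due to chance.

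All mice were C57BL/6, and the cells had been isolated from lung by flow cytometric sorting. The 8 libraries formed 4 groups of 2: STAT3-WT (WT) with HDM, STAT3-cKO (a conditional knockout, cKO) with HDM, WT with PBS and cKO with PBS. The sources used here do not give the driver of the knockout or the cells it acts in, the dose and schedule of HDM, or the age and sex of the animals. No label ties the libraries of a group to separate animals, so p-values reflect the spread among libraries, and that spread may be technical.

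House dust mite is a common allergen that induces type 2 inflammation of the airways, in which interleukin 4 and interleukin 13 act on epithelial cells through the transcription factor STAT6. Secretory cells of the mouse airway answer these cytokines by making mucus-associated proteins such as Clca1 and Fcgbp, and by making chitinases and chitinase-like proteins. STAT3, the factor that differs between the genotypes here, is activated by other cytokines, among them interleukin 6.

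Chil4 had the largest rise of the 24 genes, and its close relative Chil3 and the resistin-like gene Retnla were also among them. The 250 bases before the RefSeq start of these 3 genes (build GRCm38.p6) are printed 5′ to 3′ on the strand of the gene. Of the 21 promoters searched, which cover 19 of the 24 genes, only these 3 held a match to either of the STAT-type patterns. Capitals mark the match.
Chil4, chr3:106219480-106219729, minus strand: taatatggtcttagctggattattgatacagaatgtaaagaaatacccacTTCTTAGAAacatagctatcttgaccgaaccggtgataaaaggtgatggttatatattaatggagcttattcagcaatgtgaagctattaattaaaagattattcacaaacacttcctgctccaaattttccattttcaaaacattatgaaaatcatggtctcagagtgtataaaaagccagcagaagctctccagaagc
Chil3, chr3:106167565-106167814, minus strand: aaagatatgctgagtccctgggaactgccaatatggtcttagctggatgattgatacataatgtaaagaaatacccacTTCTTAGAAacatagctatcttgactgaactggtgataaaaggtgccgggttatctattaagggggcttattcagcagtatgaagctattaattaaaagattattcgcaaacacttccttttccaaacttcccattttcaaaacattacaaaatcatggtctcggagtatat
Retnla, chr16:48842359-48842608, plus strand: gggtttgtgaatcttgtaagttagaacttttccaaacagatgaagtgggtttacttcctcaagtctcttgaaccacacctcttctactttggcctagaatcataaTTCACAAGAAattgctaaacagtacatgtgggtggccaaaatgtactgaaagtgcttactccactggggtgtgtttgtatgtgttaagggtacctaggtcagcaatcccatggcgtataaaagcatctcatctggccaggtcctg

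The patterns were TTC and GAA kept apart by 3 bases of any kind (TTCNNNGAA), the spacing bound by STAT proteins in general, and TTC and GAA kept apart by 4 bases, the spacing that STAT6 binds as well. Each reads the same on both strands, and a stretch cannot match both from the same TTC. Promoters were 300 bases long, 250 before and 50 after the start, and 19 of the 24 genes had 21 of them in the table. Clca1, Fn1, Fer1l6, Col1a1 and H2-L had none there and were not searched. TTCNNNGAA was found in 2 of the 21, the promoters of Chil4 and Chil3. It is held by 8.30% of all 32851 promoters of this length and by 6.16% of the 7775 promoters of genes tested here. The wider spacing was found in 1 of the 21, the promoter of Retnla. It is held by 6.95% of all promoters and by 4.80% of those of genes tested. No test was made against these shares. The match began 200 bases before the start of Chil4 and 172 bases before that of Chil3, inside a run of 44 bases that the 2 genes share letter for letter. Over the 300-base windows, Chil4 and Chil3 were identical at 252 of 329 aligned columns (76.6%). Chia1, Chil3 and Chil4 lie in this order on chromosome 3, between bases 106113382 and 106219479.

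The libraries held 232556 to 593200 reads. A library with 0 reads of a gene may still hold 3, a limit that equals 1.96 to 4.88 normalized counts across libraries and covers counting error only. WT HDM replicate 2 and cKO PBS replicate 1 stood apart from the other libraries on the first principal component, which held 30.8% of the variance. The sorted cells carried airway genes in every library: Scgb1a1, the club cell secretoglobin, was at 1545 to 4213 normalized counts, Foxj1, the regulator of ciliated cells, at 380 to 810, and Epcam at 99.7 to 179. The alveolar surfactant gene Sftpc, which marks type 2 cells and not the conducting airway, was at 765 to 2878. Reads of 20 endothelial marker genes made up 0.327% and 0.348% of the WT HDM libraries and 0.0669% to 0.0972% of the other 6. For 17 fibroblast and smooth muscle markers the shares were 0.627% and 0.708% against 0.365% to 0.488%, and for 19 macrophage and dendritic cell markers 0.335% and 0.541% against 0.124% to 0.226%. Each of these sums was thus higher in both WT HDM libraries than in any other library, and in no cKO HDM library was it above the range with PBS. The reverse held for 7 epithelial markers, at 0.330% and 0.340% of the WT HDM libraries and 0.405% to 0.458% of the other 6. Ciliated cell genes were also lowest there, at 0.976% and 0.972% against 1.60% to 1.86%. The eosinophil genes Epx, Prg2, Prg3, Siglecf and Ccr3 were at 0 in all 8 libraries. All 16 eosinophil and neutrophil markers together made up 0.00641% and 0.0340% of the WT HDM libraries. They were 0.00274% and 0.00462% of the cKO HDM libraries and 0% to 0.00473% with PBS. Lymphoid and mast cell markers were at 0.0268% and 0.0397% in WT HDM and at most 0.0148% elsewhere. Red blood cell markers were at 0.0592% and 0.104% in WT HDM and at most 0.00973% elsewhere. Since these are bulk samples, a change in the number of cells of a type and a change in RNA per cell cannot be told apart.

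Stat3 itself (chromosome 11, 100886806 to 100939594) was at 75.8 and 40.9 normalized counts in the WT libraries with PBS and at 56.9 and 96.5 in the cKO libraries with PBS. With HDM it was at 134 and 157 in WT and at 76.9 and 92.2 in cKO. Over PBS and HDM together, the values of the libraries labelled cKO lay inside the range of those labelled WT. With HDM alone, both cKO libraries lay below both WT libraries. The response in cKO minus that in WT was -1.18 ± 0.552 (adjusted p = 0.638, limma interaction). The part of the gene that the conditional allele removes is not stated, so a count over the whole gene does not check the label. Between HDM and PBS over both genotypes Stat3 differed by 0.77 ± 0.314 on the log2 scale (adjusted p = 0.609, limma).

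In the fit over both genotypes, 22 genes were higher after HDM (0.293% of the genes tested) and 2 were lower (0.0266%). Differences are given throughout as log2(value + 1), HDM minus PBS, with the standard error from limma and the Benjamini-Hochberg adjusted p over the 7512 genes. This scale understates the change of low genes. Over all genes tested the median difference was 0.04, and 52.8% of the genes had a positive difference. Without adjustment, 354 genes were higher and 215 lower at p under 0.05. Every HDM value lay above every PBS value in 170 genes (2.26%) and below every PBS value in 125 genes (1.66%). Of the 24 passing genes, 22 were of this kind, 20 of the higher and both of the lower. The exceptions were Col1a1 and Timp2. With so few libraries per treatment, some genes without any change also separate fully by chance, in either direction. The number to be expected was not set against these counts. Lack of overlap in a gene that did not pass is therefore a description of its values and does not by itself show a change.

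**Figure D1:**
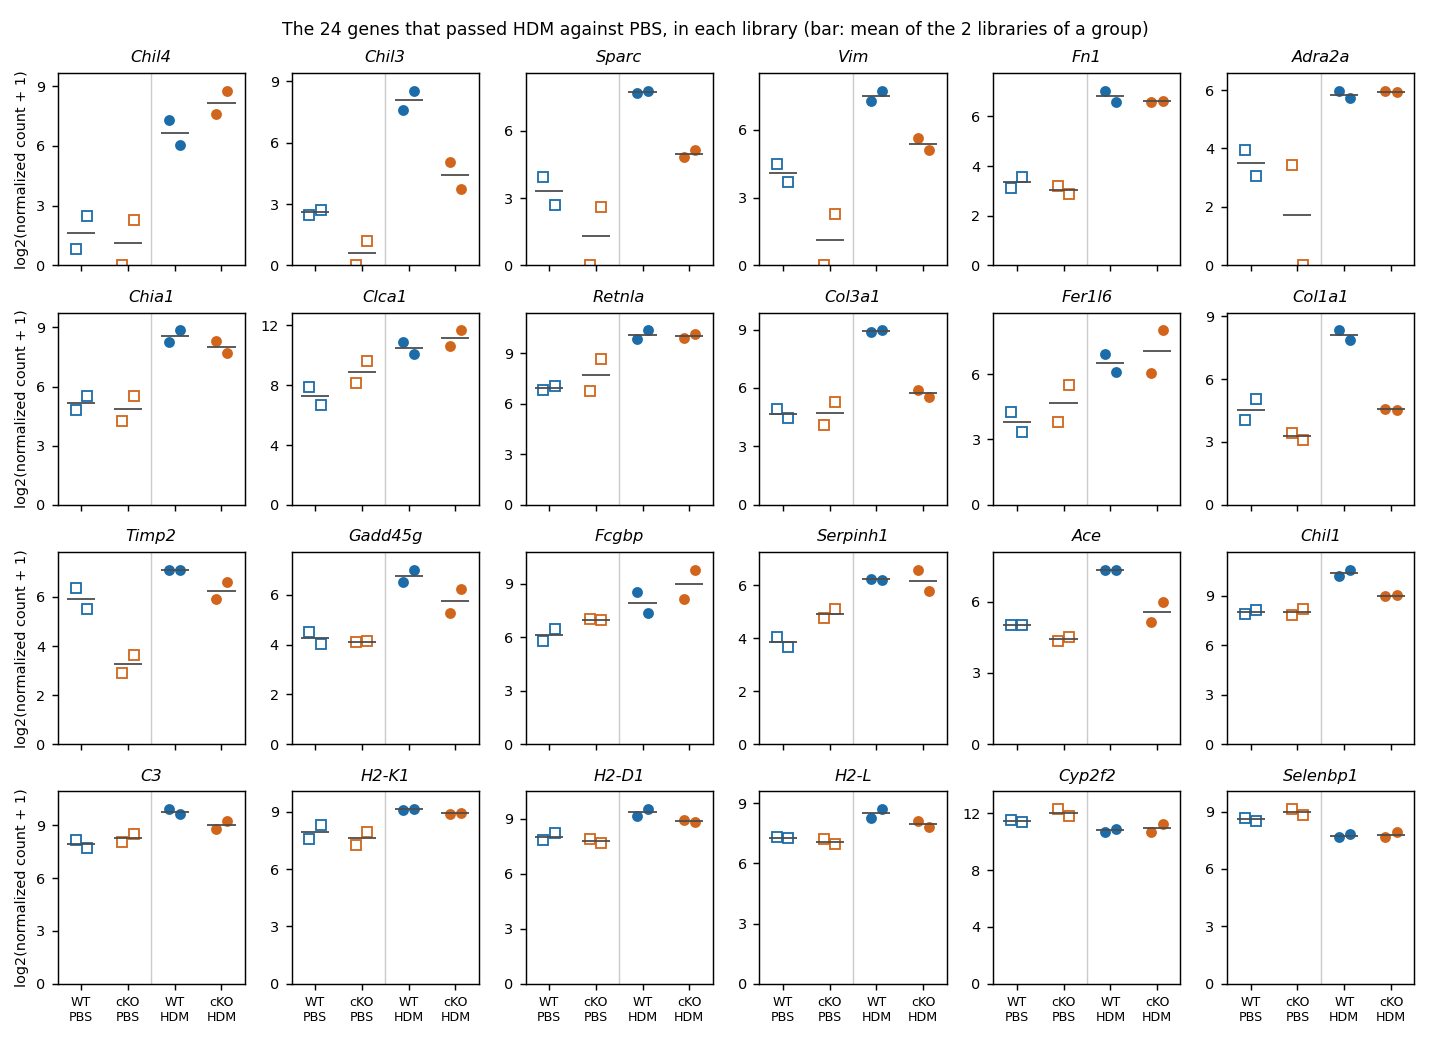
Normalized counts on a log2(value + 1) axis for the 24 passing genes, 1 panel per gene, with open squares for PBS, filled circles for HDM, blue for WT and orange for cKO, and a bar at the mean of the 2 libraries of a group. Genes are in the order of their log2 difference; in Chil4, Fn1 and Chia1 both genotypes sit well above their PBS libraries, while in Col3a1 and Col1a1 the WT HDM libraries sit far above the cKO HDM libraries.

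Chitinases and type 2 effector genes included the largest rises. Of the 24 genes listed, 23 were in the table and 10 were tested. All 10 had positive differences, 5 passed as higher and 7 did not overlap. The median difference was 2.99, against 0.04 over all genes tested. Values are given for PBS and then HDM, each in the order WT replicate 1, WT replicate 2, cKO replicate 1, cKO replicate 2.

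Chil4 (chitinase-like 4, also called Ym2), a secreted lectin-like protein without chitinase activity, was at 0.765, 4.55, 0 and 3.81 normalized counts with PBS and at 154, 64.5, 189 and 434 with HDM. It was at or near the limit of detection in all PBS libraries and well above it in all HDM libraries, with the widest gap of any gene tested, 3.56 on the log2 scale between the nearest HDM and PBS libraries. It rose by 6.02 ± 0.643 (adjusted p = 0.000123). Chil3 (Ym1), the close relative of Chil4 that is also a known product of alternatively activated macrophages, was at 4.59, 5.46, 0 and 1.27 with PBS and at 193, 370, 31.9 and 12.5 with HDM. Its WT HDM values were several times its cKO HDM values, and all 4 lay above PBS. The rise over both genotypes was 4.64 ± 0.624 (adjusted p = 0.00141). Chil4 and Chil3 share sequence: of the 50-base windows of Chil4 transcripts, 18.5% also occur in Chil3, so reads may have been split between them and their separate values are uncertain. Macrophage and dendritic cell markers made up 0.335% and 0.541% of the WT HDM libraries, 0.132% and 0.124% of the cKO HDM libraries and 0.128% to 0.226% of the PBS libraries, and the part of these cells in the rise of Chil3 and Chil4 was not tested.

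Chia1, the acidic mammalian chitinase that cleaves chitin, was at 26.8, 45.5, 17.9 and 44.4 normalized counts with PBS and at 305, 464, 321 and 206 with HDM. The groups were far apart and the genotypes overlapped. With a rise of 3.27 ± 0.309 it had the smallest adjusted p of all genes tested (6.43e-05, limma). Retnla (Fizz1), a small secreted resistin-like protein, went from 113, 134, 107 and 394 with PBS to 899, 1310, 938 and 1120 with HDM. One PBS library, cKO replicate 2, was well above the other 3 and still below every HDM library. Retnla rose by 2.72 ± 0.308 (adjusted p = 0.000212). Chil1 (BRP-39, also made by alveolar type 2 cells) was at 237, 284, 228 and 290 with PBS and at 1171, 1544, 506 and 523 with HDM, a rise of 1.69 ± 0.243 (adjusted p = 0.00223). Its PBS libraries lay close together, while the WT HDM libraries were far above the cKO HDM libraries. The summed reads of 24 alveolar type 2 genes, Chil1 among them, were 4.58% and 5.91% of the WT HDM libraries and 1.77% to 2.41% of the other 6, and the part of alveolar cells in the rise of Chil1 was not tested.

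Among the 5 members that were tested and did not pass, Pla2g4c and Slc26a4 also had no overlap. Pla2g4c, a phospholipase A2, was at 2.30, 0, 0 and 0 with PBS and at 48.9, 16.8, 31.2 and 68.9 with HDM (4.80 ± 1.02, adjusted p = 0.0584). Slc26a4 (pendrin), an anion exchanger, was at 2.30, 0, 3.25 and 0 with PBS and at 104, 148, 21.8 and 4.98 with HDM (4.30 ± 1.02, adjusted p = 0.132). Each PBS value in this pair was within the limit of detection, and the HDM values spread widely. Both genes passed with edgeR and with DESeq2 on the recovered reads, which called 7 members of the list each. Retnlb, Itln1 and Arg1 were at 0 in all 4 PBS libraries and too low to be tested. Serpinb2 and Serpinb3a were at 0 in all 8 libraries, with HDM as with PBS. Alox15, also too low to be tested, had its higher values with PBS, at 5.08 to 8.13 against 0 to 1.30 with HDM.

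Mucous secretory genes were mixed. Of 30 genes listed, 28 were in the table and 20 were tested, 13 with positive and 7 with negative differences. Only Clca1 and Fcgbp passed with limma, both higher, and the median difference was 0.43. Clca1, a secreted regulator of chloride channels and a marker of mucous cells, was at 230, 102, 283 and 784 with PBS and at 1884, 1104, 1565 and 3287 with HDM. No values overlapped, although the cKO PBS replicate 2 library reached 784 and the lowest HDM library was at 1104. The rise was 2.75 ± 0.340 (adjusted p = 0.000569). Fcgbp, a protein that binds the Fc part of IgG and is secreted with mucus, was at 55.1, 88.2, 129 and 123 with PBS and at 371, 162, 284 and 895 with HDM (1.90 ± 0.326, adjusted p = 0.0139). The 2 cKO replicates with HDM differed about as much as the groups did.

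The gel-forming mucins did not pass. Muc5ac, the mucin of goblet cells, was at 26.8, 1.82, 9.76 and 50.8 with PBS and at 62.0, 37.4, 31.9 and 103 with HDM (1.89 ± 0.671, adjusted p = 0.501), with overlap. Muc5b, the mucin of resting airways, was at 221 to 631 with PBS and 152 to 662 with HDM (-0.35 ± 0.361, adjusted p = 0.845). Spdef, a transcription factor of goblet cells, was below the minimum mean, at 0 to 6.35 in PBS and 5.81 to 26.6 in HDM. Several defence genes of the list had negative differences. Dmbt1, a scavenger receptor of mucosal surfaces, was at 10.7, 29.1, 16.3 and 69.8 with PBS and at 0, 0, 0 and 4.15 with HDM, without overlap (-4.09 ± 1.15, adjusted p = 0.304). Ltf (lactotransferrin) had no overlap either, at 292 to 543 with PBS and 67.5 to 285 with HDM (-1.24 ± 0.351, adjusted p = 0.307). Bpifa1, a secreted protein of the upper airway, was at 650, 1115, 1581 and 1083 with PBS and at 279, 423, 120 and 653 with HDM (-1.76 ± 0.379, adjusted p = 0.0618). Bpifa1, Dmbt1 and Ltf did not pass with limma, and Dmbt1 did with edgeR and with DESeq2.

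Matrix and wound genes supplied the second set of large rises. Of 50 genes listed, 48 were in the table and 30 were tested, 23 of them with positive differences. Fn1, Vim, Sparc, Timp2 and Serpinh1 passed with limma, DESeq2 also called Col4a1, and the median difference was 0.39. That median was far below the rises of the members that passed.

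Fn1 (fibronectin), a matrix glycoprotein laid down after injury, was at 7.65, 10.9, 8.13 and 6.35 normalized counts with PBS and at 130, 95.4, 95.1 and 97.2 with HDM. Both sets were tight, and both genotypes with HDM were at nearly the same level. The rise was 3.52 ± 0.366 (adjusted p = 0.000123) over both genotypes and 3.57 within cKO. Vim (vimentin), an intermediate filament of mesenchymal and migrating cells, was at 21.4, 11.8, 0 and 3.81 with PBS and at 155, 211, 48.6 and 33.2 with HDM (3.83 ± 0.525, adjusted p = 0.00156). Sparc, a collagen-binding matrix protein, was at 14.5, 5.46, 0 and 5.08 with PBS and at 208, 220, 27.6 and 34.1 with HDM (4.05 ± 0.577, adjusted p = 0.00222). In both genes the WT HDM libraries were several times above the cKO HDM libraries, and cKO PBS replicate 1, the shallowest library, was at 0. Serpinh1, a chaperone that folds collagen, was at 15.3, 11.8, 26 and 33.0 with PBS and at 75.0, 72.2, 95.1 and 53.2 with HDM (1.81 ± 0.366, adjusted p = 0.0432).

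Col3a1 and Col1a1, fibrillar collagens made mainly by fibroblasts, also passed, and both belong to the fibroblast marker list. Col3a1 was at 29.1, 20.9, 16.3 and 38.1 with PBS and at 461, 500, 59.5 and 44.9 with HDM (2.62 ± 0.50, adjusted p = 0.0291). Col1a1 was at 15.3, 31.8, 9.76 and 7.62 with PBS and at 323, 232, 22.5 and 22.4 with HDM (2.43 ± 0.461, adjusted p = 0.0291). The WT HDM libraries were about an order of magnitude above the cKO HDM libraries in both, and in Col1a1 the cKO HDM values were below WT PBS replicate 2. Of the 17 fibroblast and smooth muscle markers, 7 were tested, 6 of them with positive differences. Their median difference was 3.57 within WT and -0.14 within cKO, and Cspg4 was at 0 in every library. The part of fibroblasts in the rise of the collagens, Fn1, Sparc and Vim was not tested.

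Timp2, an inhibitor of metalloproteinases, was at 81.1, 44.6, 6.51 and 11.4 with PBS and at 134, 138, 60.2 and 95.5 with HDM (2.08 ± 0.398, adjusted p = 0.0291). Its groups overlapped over both genotypes, since WT PBS replicate 1 was above cKO HDM replicate 1. It did not pass with edgeR on the recovered reads.

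The genes of class I antigen presentation had positive differences throughout, though few of them passed. All 20 genes of the list were in the table, 15 were tested, and all 15 had positive differences with a median of 1.22. H2-D1 and H2-K1, the classical class I heavy chains of this strain, were the members that passed with limma and edgeR, and DESeq2 also called B2m and H2-Q7. H2-D1 was at 230, 292, 233 and 203 with PBS and at 571, 739, 492 and 459 with HDM (1.22 ± 0.180, adjusted p = 0.00269). H2-K1 was at 188, 323, 155 and 246 with PBS and at 550, 570, 481 and 493 with HDM (1.25 ± 0.210, adjusted p = 0.0122). HDM and PBS were cleanly separated in both genes, and so was B2m, the light chain shared by class I molecules, at 55.1 to 132 against 153 to 200 (1.12 ± 0.264, adjusted p = 0.132). The other 12 tested members did not pass with limma, and their differences ranged up to 3.22 in H2-Q7. The summed reads of the list were 0.595% to 0.725% of the HDM libraries and 0.348% to 0.409% of the PBS libraries. A symbol H2-L outside the list passed as well, at 124 to 156 with PBS and 225 to 420 with HDM (1.05 ± 0.203, adjusted p = 0.0291). It had no entry in the annotation tables used here, and class I genes share sequence (4.79% of the 50-base windows of H2-D1 transcripts occur in H2-K1), so these values are uncertain.

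No gene of class II presentation passed. Of 12 genes listed, 6 were tested and 0 passed with limma (2 higher at unadjusted p under 0.05), while edgeR called Ctss and DESeq2 called Cd74. Their median difference was 1.57 over both genotypes, but 3.26 within WT and -0.23 within cKO. Cd74, the invariant chain, came closest, at 66.6, 81.8, 42.3 and 88.9 with PBS and at 364, 749, 127 and 93.0 with HDM (1.81 ± 0.375, adjusted p = 0.0506), and it had no overlap. H2-Eb1, a class II beta chain, was at 3.83 to 22.9 with PBS, at 65.2 and 99.3 in WT HDM and at 27.6 and 12.5 in cKO HDM (adjusted p = 0.483). The high values were thus those of the WT HDM libraries, in which the summed reads of macrophage and dendritic cell markers were also high. Of those 19 markers 2 were tested, 1 with a positive and 1 with a negative difference. The marker list shares Lyz2 with the alveolar type 2 list. The part of macrophages and dendritic cells in the class II values was not tested.

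C3, the central complement component, which airway and alveolar epithelium can make, was at 286, 207, 264 and 371 with PBS and at 980, 795, 449 and 603 with HDM (1.29 ± 0.236, adjusted p = 0.0204). With limma and edgeR it was the only passing gene among 8 tested of 17 listed complement genes, whose median difference was 0.64, and also among 13 tested of 19 listed genes of the NF-kB response, whose median was 0.50. DESeq2 also called C4b in the former list and Lcn2 in the latter. Lcn2 (lipocalin 2), a siderophore-binding protein of the latter list, had no overlap but did not pass with limma, at 0 to 12.2 with PBS and 18.1 to 106 with HDM (2.66 ± 0.657, adjusted p = 0.156).

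The remaining rises belonged to no list. Adra2a, an adrenergic receptor, was at 14.5, 7.27, 9.76 and 0 with PBS and at 62.0, 51.6, 61.0 and 59.8 with HDM (3.28 ± 0.676, adjusted p = 0.0490). All 4 HDM libraries were alike. Gadd45g, a stress- and cytokine-induced gene, was at 15.5 to 21.4 with PBS and at 90, 128, 37.7 and 74.8 with HDM (2.07 ± 0.371, adjusted p = 0.0204). Fer1l6, of the ferlin family of membrane proteins, was at 18.4, 9.09, 13.0 and 44.4 with PBS and at 120, 68.3, 66.0 and 258 with HDM (2.55 ± 0.463, adjusted p = 0.0204). Ace, the angiotensin-converting enzyme, which lung endothelium makes in quantity, was at 31.4, 31.8, 19.5 and 21.6 with PBS and at 160, 162, 34.1 and 63.1 with HDM (1.73 ± 0.343, adjusted p = 0.0367). Its gap between HDM and PBS was only 0.10, set by cKO HDM replicate 1 and WT PBS replicate 2. All 14 of 20 endothelial markers that were tested had positive differences, with a median of 2.36 within WT and 0.11 within cKO, and 0 of them passed with limma, edgeR or DESeq2 (7 higher at unadjusted p under 0.05 with limma). The part of endothelial cells in the rise of Ace was not tested. Ace, Col1a1 and H2-L were named after their values were seen, because they passed.

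Genes of club cells, the secretory and detoxifying cells of the mouse airway, had mostly negative differences. All 30 listed genes were in the table, 28 were tested and 24 of these had negative differences, with a median of -0.53. Selenbp1 and Cyp2f2 passed with limma and edgeR, and 6 members had no overlap, all lower. Cyp2f2, the cytochrome P450 that defines mouse club cells, was at 2955, 2735, 5044 and 3570 normalized counts with PBS and at 1660, 1894, 1660 and 2454 with HDM. The highest HDM library, cKO replicate 2, lay just under the lowest PBS library, WT replicate 2. Cyp2f2 fell by 0.88 ± 0.169 (adjusted p = 0.0291). Selenbp1, a selenium-binding protein that oxidizes methanethiol, was at 406, 364, 563 and 446 with PBS and at 202, 223, 200 and 243 with HDM, and it fell by 1.02 ± 0.185 (adjusted p = 0.0204). Its 4 HDM libraries lay close together in both genotypes.

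Another set of club cell genes had no overlap and did not pass with limma or edgeR, although Scgb3a2, Ces1d and Cyp4b1 passed with DESeq2. Scgb3a2, a secretoglobin, was at 609, 610, 1052 and 770 with PBS and at 362, 474, 406 and 607 with HDM (-0.71 ± 0.188, adjusted p = 0.224), so that its groups nearly touched. Ces1d, a carboxylesterase, was at 527 to 606 against 286 to 438, and Cyp4b1, a cytochrome P450, at 257 to 306 against 152 to 197. Scgb1a1, the best-known club cell product, overlapped, at 2026 to 4213 with PBS and 1545 to 2440 with HDM (-0.51 ± 0.203, adjusted p = 0.601). Summed reads of the list were 3.68% to 5.59% of the PBS libraries and 2.56% to 3.73% of the HDM libraries. Of 47 tested genes of xenobiotic and glutathione metabolism, a list that shares Cyp2f2 and Cyp4b1, among others, with the club cell list, Cyp2f2 alone passed with limma or edgeR, and the median was -0.25.

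Outside the club cell list the lower genes nearest to passing without overlap were Depp1, at 69.8 to 102 with PBS and 14.5 to 49.6 with HDM (-1.47 ± 0.351, adjusted p = 0.134), Syne2, a nuclear envelope protein that anchors the cytoskeleton (-0.92 ± 0.229, adjusted p = 0.156), Pglyrp1, a peptidoglycan recognition protein (-2.84 ± 0.722, adjusted p = 0.180), and Il18r1, the interleukin 18 receptor. Il18r1 was at 148, 118, 158 and 184 with PBS and at 86.1, 83.8, 83.5 and 75.6 with HDM (-0.86 ± 0.230, adjusted p = 0.224). None of these passed.

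Genes of the unfolded protein response and secretory pathway, which fold and export secreted proteins, had small and mostly positive differences. Of 33 listed, 30 were tested, 27 had positive differences and 0 passed with limma, edgeR or DESeq2, with a median of 0.45. At unadjusted p under 0.05 limma had 9 higher and 1 lower. Hspa5 (BiP), the main chaperone of the endoplasmic reticulum, was at 348, 251, 410 and 417 with PBS and at 559, 678, 493 and 503 with HDM (0.66 ± 0.199, adjusted p = 0.368). Xbp1, the transcription factor of this response, was at 42.1, 37.3, 43.9 and 64.8 with PBS and at 97.2, 156, 91.4 and 73.1 with HDM (1.11 ± 0.305, adjusted p = 0.266). Neither overlapped, and in both the 2 WT HDM libraries were the highest. The sums of reads did not overlap either, at 1.03% to 1.14% with HDM and 0.784% to 0.961% with PBS.

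Ciliated cell genes had a median of -0.21, with 0 of 40 tested passing with limma, edgeR or DESeq2 (3 lower at unadjusted p under 0.05), and the median was -0.66 within WT and 0.10 within cKO. Alveolar type 2 genes had a median of 0.66, with Chil1 alone passing among 23 tested with limma or edgeR, while DESeq2 also called Il33, Lyz1 and Sftpd, and the median was 1.54 within WT and -0.32 within cKO. Of 22 tested STAT3 targets (median 0.33), 0 passed with limma or edgeR and 1, Lcn2, with DESeq2; 2 were higher and 1 lower at unadjusted p under 0.05. Of 14 interferon-stimulated genes (median 0.55), 0 passed with limma, edgeR or DESeq2, and 4 were higher without adjustment. Of 6 alarmin and allergen-sensing genes (median 0.69), 0 passed with limma or edgeR and Il33 passed with DESeq2, with 2 higher without adjustment. Of 9 genes of type 2 cytokine receptors and signalling (median 0.45), 0 passed with limma or edgeR and Cish passed with DESeq2, with 1 higher and 1 lower without adjustment. Cish, a feedback inhibitor of cytokine signalling, had no overlap, at 0 to 5.36 with PBS and 12.5 to 29.8 with HDM (2.75 ± 0.846, adjusted p = 0.391). Among the alarmins Il33 was at 6.35 to 20.9 with PBS, at 104 and 162 in WT HDM and at 20.3 and 13.3 in cKO HDM (2.03 ± 0.537, adjusted p = 0.224), and Tslp and Il25 were at 0 in every library.

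**Figure D2:**
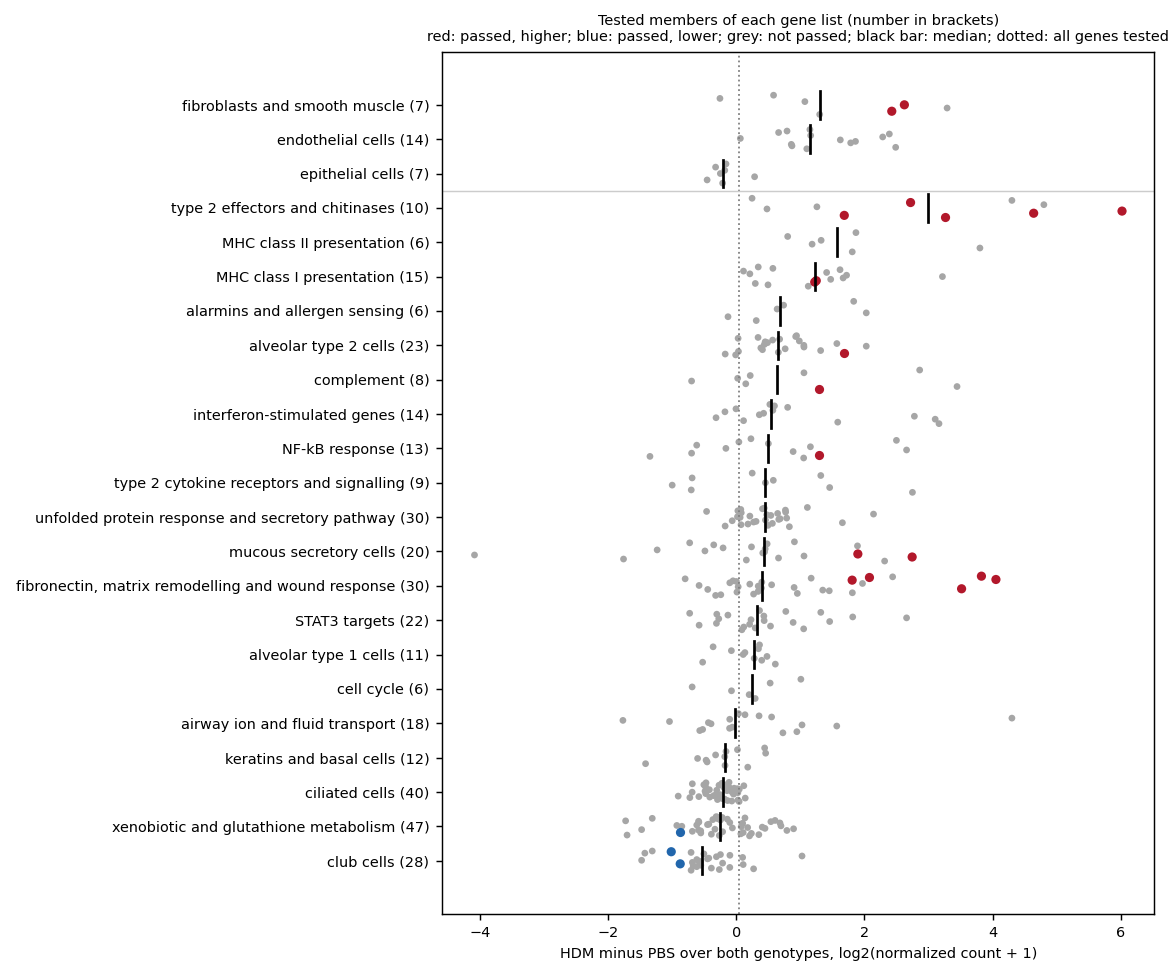
Log2 differences (HDM minus PBS over both genotypes, log2(value + 1) scale) of every tested member of each list with at least 5 tested genes; red points passed as higher, blue as lower, grey did not pass, black bars are list medians and the dotted line is the median of all genes tested. The list of type 2 effectors and chitinases reaches farthest to the right (median 2.99), the club cell list has the lowest median (-0.53), and cell type markers stand above the horizontal line.

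The response within each genotype was read from the same data with 1 mean per group. HDM minus PBS within WT and within cKO share no library. All 24 genes had the same sign in both genotypes, which the choice of genes over both genotypes partly fixes. The difference was larger in WT for 15 genes and larger in cKO for 9. Taken alone, 15 of the 24 passed within WT and 4 within cKO (Chia1, Chil4, Fn1 and Timp2), 3 of them within both, and 8 passed within neither.

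For Fn1 the differences were 3.47 in WT and 3.57 in cKO, and for H2-K1 1.18 and 1.32. Chia1 differed by 3.39 and 3.14. Fcgbp (1.80 and 1.99), H2-D1 (1.32 and 1.13) and Fer1l6 (2.71 and 2.39) were also alike in size. For Chil4 the response was 5.01 in WT and 7.04 in cKO. The genes with the most unequal responses were Col3a1, at 4.23 in WT and 1.02 in cKO, and Col1a1, at 3.57 and 1.28. Timp2 was unequal the other way, at 1.16 in WT and 2.99 in cKO, and its 2 cKO PBS libraries were the lowest of all. Adra2a was also larger in cKO, at 2.34 in WT and 4.23 in cKO, with cKO PBS replicate 2 at 0. Chil3 was larger in WT, at 5.48 against 3.80 in cKO.

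The difference of the responses was tested as a genotype by treatment interaction. Over all genes 2 passed (0.0266%), Hc and Scd1, and neither is among the 24. Of the 24, 0 passed with limma, 1 passed with edgeR (Col3a1) and 2 with DESeq2 (Col3a1 and Chil1). With limma the smallest adjusted p was 0.140 for Col3a1, whose response in cKO was lower by 3.21 on the log2 scale (unadjusted 95% interval -4.52 to -1.90). Without adjustment the 95% interval of the difference also left out 0 for Col1a1, Chil1, C3 and Timp2, so for 5 genes in all. For the others it included 0, which does not show equal responses: the intervals reached 0.638 to 2.78 log2 units to either side of the estimate. For Chia1 the difference, cKO minus WT, lay between -1.56 and 1.06, for Fn1 between -1.47 and 1.67, and for Chil4 between -0.56 and 4.62.

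**Figure D3:**
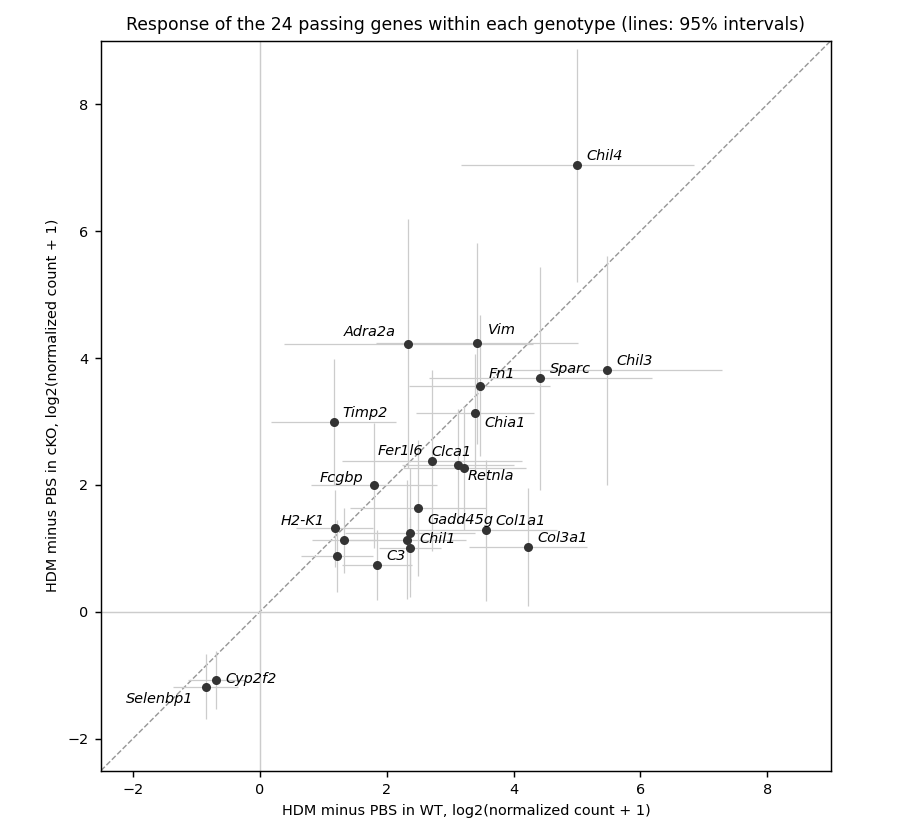
HDM minus PBS within WT (horizontal) and within cKO (vertical) for the 24 passing genes, both as log2(value + 1), with 95% intervals as grey lines and equality as the dashed line; some points near 1 to 2 are unlabelled. All points lie where both differences have the same sign, Col3a1 and Col1a1 lie below the dashed line and Chil4 and Timp2 above it.

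Calls were also made within each genotype, in 1 fit whose spread was estimated over all 8 libraries, so that the libraries of the other genotype enter each standard error and p but not the difference itself. Within WT 38 genes were higher (0.506% of genes tested) and 1 was lower (0.0133%). In the cKO libraries 29 of the 38 had a positive difference (76.3%, against 55.5% of all genes tested), and in 20 both HDM libraries lay above both PBS libraries (52.6%, against 19% of all genes tested). Their median difference was 2.41 in WT and 0.76 in cKO. Chil4, Chil3, Sparc, Fn1, Chia1, Slc26a4, Retnla and Clca1 were those with the largest differences in cKO, from 7.04 for Chil4 down to 2.27 for Clca1. Those with negative differences in cKO included Bgn, a proteoglycan of fibroblasts, the lipid synthesis genes Scd1 and Fasn, the class II gene H2-Aa, the complement gene Hc and the water channel gene Aqp1. In the other direction 4 genes were higher within cKO (0.0532%), 3 of them also among the 38, and in all 4 both WT HDM libraries lay above both WT PBS libraries, which 21.2% of all genes tested did. The genes of this comparison were named after their values were seen. Across all 7512 genes the WT and cKO differences correlated at r = 0.08, and at r = 0.21 over the 1803 genes with a mean of at least 50. This correlation is across genes, which are not independent replicates.

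Most genes without overlap did not pass. Of the 295, 273 did not, 150 higher and 123 lower, and most were low: 122 of the 170 higher and 85 of the 125 lower genes had a mean under 50 normalized counts, as had 5709 of all 7512 genes tested. Of the 24 passing genes, 3 were that low. The median difference was 1.22 among the higher and -0.88 among the lower genes, and the size was larger in WT for 70 of the 170 and for 77 of the 125. Among the widest gaps between the nearest HDM and PBS libraries, Chil4 came first (3.56), followed by Fn1 (3.01), Tnxb (2.77), Pla2g4c (2.43), Chia1 (2.16) and Adra2a (1.76). Tnxb, a matrix glycoprotein, had 0 reads in all 4 PBS libraries and was at 18.9, 52.9, 5.81 and 5.81 with HDM, and it was the only higher gene without overlap that had 0 reads in all of them. It did not pass (3.90 ± 1.67, adjusted p = 0.635). Notch4, a Notch receptor of endothelium, was at 0 to 5.46 with PBS and at 52.2, 61.9, 12.3 and 19.1 with HDM (3.75 ± 0.952, adjusted p = 0.180). C4b, a complement component, was at 0 to 3.64 with PBS and 8.31 to 33.9 with HDM (3.45 ± 1.20, adjusted p = 0.492). Tnxb, Notch4 and C4b were picked for their gaps after their values were seen.

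The passing genes differed in how far they rested on single libraries. Chia1, Chil1, Chil4, Clca1, Fn1, H2-D1, Retnla and Vim passed in each of the 8 fits that left out 1 library. Chia1, Chil4 and Fn1 also passed under all 15 other settings tried. Without WT HDM replicate 1, 8 genes were higher and 0 were lower with limma (266 lower at unadjusted p under 0.05), and without cKO PBS replicate 1, the shallowest library, 39 were higher and 4 lower. Both lower genes, Cyp2f2 and Selenbp1, lost their call in 5 of the 8 such fits, with differences of -0.95 to -0.72 for Cyp2f2 and -1.08 to -0.92 for Selenbp1. Without the 2 libraries that stood apart, 21 of the 24 genes passed, and Ace, H2-L and Serpinh1 did not.

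**Figure D4:**
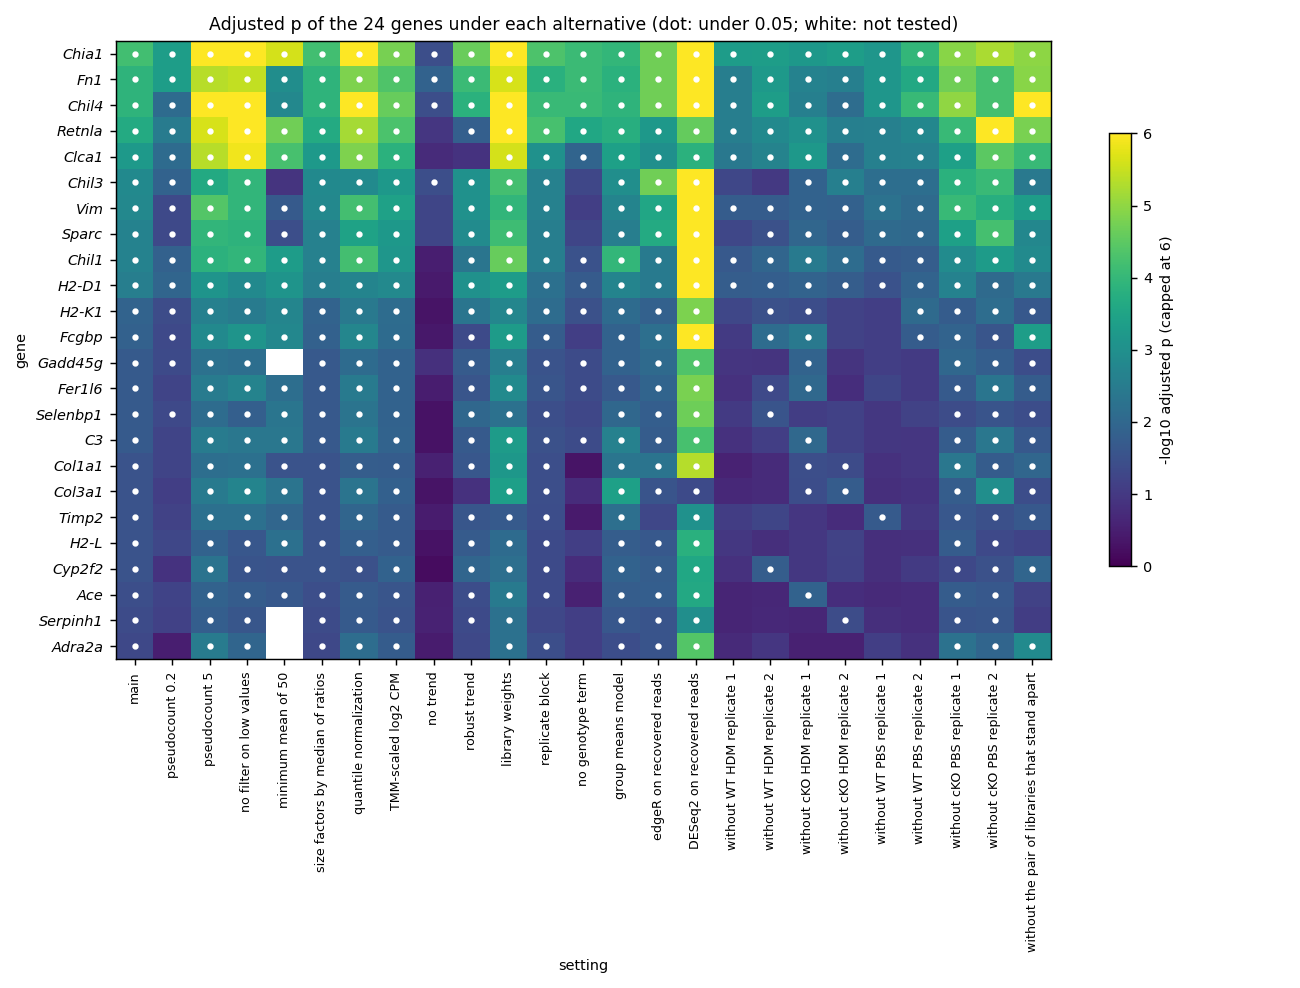
Adjusted p of the 24 passing genes (rows, in order of the p over all 8 libraries) under each setting (columns), as -log10 with the colour capped at 6; a dot marks an adjusted p under 0.05 and a white cell a gene that was not tested. Chia1, Fn1 and Chil4 carry a dot in every column, and the lower rows lose theirs in most columns that leave out a WT library.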

How the data were processed

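RNA-seq was done on FACS-sorted lung airway epithelial cells with a directional low-input kit (TRIzol total RNA), per the labels' protocols. The deposited table gives 1 signal value per gene symbol and library, which the authors normalized from read counts. HOMER, DESeq2 and mm10 are named in the submitters' processing notes. The aligner, annotation release and use of strand were not stated, so reads of overlapping, antisense and near-identical genes cannot be assigned with certainty. Every value was a whole multiple of 1 step per library (100% of values whole within 0.01 reads). Dividing by the step recovered 232556 to 593200 reads per library.

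Values were analysed as log2(value + 1) for the 7512 genes with a mean of at least 10. limma 3.58.1 in R 4.3.3 (genotype and treatment as additive terms, eBayes with trend, 5 residual degrees of freedom) gave two-sided p-values, Benjamini-Hochberg adjusted over all genes tested, with 0.05 as the threshold. The interaction and the within-genotype responses came from a model with 1 mean per group. edgeR 4.0.16 (quasi-likelihood, 31 genes higher and 3 lower) and DESeq2 1.42.0 were run on the recovered reads as alternatives, and the code was tested on simulated data. Library shares are percentages of all recovered reads.

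Named are the 12 largest rises and falls that passed without overlap (filled to 8 where fewer passed), up to 6 passing members of each gene list or else 2 members of smallest p, and Stat3, Muc5ac, Muc5b, Scgb1a1, Sftpc, Foxj1, Il33, Tslp, Epcam and Ptprc; genes given beside these were chosen after their values were seen. The genes, lists and tests were chosen with earlier results of these data known. Gene positions, promoters and shared windows come from RefSeq and GENCODE on GRCm38, the build of mm10. No label says that replicate numbers pair the libraries. The correlations of replicate differences between groups were -0.02 to 0.02. Most genes tested were low, with large counting error, so these correlations cannot decide whether libraries were paired. The values of 1 gene are not reported here.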

Additional observations from a re-analysis of the deposited data

Results flagged for a closer look

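In 122 sets of 4 libraries (HDM or PBS, for the 61 named genes), 1 library lay far from the other 3 in 3 cases, where chance gives about 1 in 20 sets. Fn1 was at 130 normalized counts in WT HDM replicate 1 and at 95.1 to 97.2 in the other HDM libraries. Retnla was at 394 in cKO PBS replicate 2 and at 107 to 134 in the other PBS libraries. Lcn2 was at 0 in cKO PBS replicate 1, the shallowest library, and at 7.62 to 12.2 in the other PBS libraries.

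The response to HDM differed between the genotypes in 2 genes by the interaction test of limma, neither of which passed over both genotypes. For Scd1, a desaturase of fatty acids, the response in cKO minus that in WT was -2.71 ± 0.348 (adjusted p = 0.00828): normalized counts were 599 and 670 with PBS and 2243 and 2569 with HDM in WT, and 293 and 481 with PBS and 194 and 243 with HDM in cKO. For Hc, complement component C5, it was -2.77 ± 0.429 (adjusted p = 0.0386), with 88.8 and 149 with PBS against 701 and 565 with HDM in WT, and 133 and 112 against 106 and 88.9 in cKO. In both genes the WT HDM libraries were the high ones, and these are also the libraries with the high sums of alveolar and endothelial genes. Scd1 and Hc are themselves members of the alveolar type 2 list, so its sum is not independent of them. The part of alveolar and endothelial cells in the difference was not tested.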

How the results depend on the processing

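Of 1449 values of named genes under alternatives, 1278 kept their direction and their side of the threshold, 120 lost the call, 44 gained one and 7 changed sign, all of them for Foxj1 and Muc5b, which never passed. Higher genes numbered 22 (lower 2, interaction 2) as reported. They were 13, 1 and 0 with a pseudocount of 0.2, and 33, 5 and 12 with a pseudocount of 5. With no filter on low values the interaction called 0 genes and 274 were without overlap and higher. With a minimum mean of 50 they were 24, 6 and 9, with 48 and 40 without overlap. Quantile normalization gave 27, 5 and 9, no variance trend 7, 0 and 0, library weights 47, 11 and 3, and no genotype term 11, 0 and 2. edgeR gave 31, 3 and 7 and DESeq2 59, 15 and 27 on recovered reads. Size factors by median of ratios, TMM scaling, robust settings and a model of group means kept all 3 counts within 1.5 times.

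Leaving out each library in turn gave 8 to 39 higher genes, 0 to 5 lower genes and 0 to 115 interaction calls, with 232 to 328 genes without overlap that were higher and 197 to 250 that were lower. The count of higher genes was 8 without WT HDM replicate 1, 12 without WT HDM replicate 2, 14 without cKO HDM replicate 2, 11 without WT PBS replicate 1, 12 without WT PBS replicate 2, 39 without cKO PBS replicate 1 and 37 without cKO PBS replicate 2. Interaction calls were 115 without cKO PBS replicate 2. The cause was not tested, beyond that fewer libraries leave less chance of overlap. In these fits Foxj1 ranged from -0.26 to 0.0225 and Muc5b from -0.74 to 0.106. Without the 2 libraries that stood apart, chosen after seeing the data, there were 21 higher and 8 lower genes, 17 interaction calls and 382 and 383 genes without overlap, with Foxj1 at 0.0507 and Muc5b at 0.00030.

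The replicate number as a block gave 24 higher and 3 lower genes and 3 interaction calls, with 23 of the 24 genes still passing; Serpinh1 was lost. The numbers are shared between groups, and no label says that they pair the libraries. Depth limits low genes: 5709 of 7512 genes tested had a mean under 50, and 3 reads are 1.96 to 4.88 normalized counts.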
